A study of Rattus norvegicus with 232 samples.

Results

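The genes described here encode the proteins of synaptic vesicles and of the machinery that fuses them with the plasma membrane. They were chosen by symbol in the RefSeq gene table of rat brain: the synaptotagmins (Syt) and synaptotagmin-like genes (Sytl), the syntaxins (Stx), the vesicle-associated membrane proteins (Vamp), the complexins (Cplx), the Snap genes, Rab3a to Rab3d, the syntaxin-binding genes (Stxbp), the Sv2 genes, the synapsins (Syn), Syp, the Sypl genes and Synpr, the Unc13 and Rims genes, and the Nap genes of NSF attachment. The rule took 85 genes of the 20859 in the table. A further 16 symbols that are alike in spelling but belong to other families (Snapc and Rab30 to Rab39) were left out. Of the 85 genes, 70 had a mean level over the table's median of 8.32 on its log2 scale.

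The series describes 232 total RNA samples of brain from untreated male rats, taken from inbred strains that belong to the Hybrid Rat Diversity Panel. The animals of an inbred strain are near-identical in genotype and serve as its replicates. The table used here held 214 libraries of 197 animals from 74 strains, with 3 animals in 54 strains, 2 animals in 15 and a single animal in 5. The strains were 30 recombinant inbred strains of the HXB/BXH family (88 animals), 19 of the FXLE/LEXF family (43 animals) and 25 classic inbred strains (66 animals), among them BN-Lx/Cub and SHR/OlaIpcv, from which the HXB/BXH family was bred, and LE/Stm, a progenitor of the FXLE/LEXF family. The labels give no treatment for any animal. The study's methods describe young adult animals and the use of 1 side of a sagittally split brain for part of these strains.

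A nerve terminal releases transmitter when a vesicle that has docked and been primed fuses with the plasma membrane. The vesicle protein Vamp2 pairs with Stx1a and Snap25 of the plasma membrane into the SNARE bundle that drives fusion. The Unc13 proteins open syntaxin and prime the vesicle, and the Rims proteins tether Rab3 vesicles and calcium channels at the active zone. Syt1 and its relatives sense calcium, and the complexins clamp the bundle and aid its firing. Nsf and its attachment proteins Napa, Napb and Napg take spent bundles apart, while synapsins hold vesicles in reserve and Sv2a, Syp and Synpr are proteins of the vesicle membrane. Several relatives serve other membranes, such as Stx8 and Stx7 of late endosomes, Stx17 of autophagosomes, and Snap23 and Stx3, which act in fusion in many cell types.

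The brain label was checked against marker lists. All 8 neuron markers were in the table, and the mean of their log2 levels ran from 13.37 to 14.00 over the animals. A single library stood apart: in LE/Stm, which had 1 animal in the table, the mean log2 level of 6 liver markers was 17.55 against a median of 10.20 over animals. The values are log2-scale levels without counts. How deeply a library was sequenced is therefore unknown, and the number of animals sets the precision. Levels are not scaled by gene length and are compared within a gene only. A strain effect was called with the moderated F-test of limma over strains at a false discovery rate (FDR) of 5% over all genes of the table, and R2 is the share of the variance over animals that lies between strains.

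Strain differences were found across most families of these genes, at a share near that of the whole table. In the F-test over 74 strains, 33 of the 85 genes passed, beside 37.3% of all genes, and 28 of those 33 lay above the table's median level. The median R2 was 0.465 for the 85 genes and 0.451 for all genes, where 0.372 is the value that 74 strains and 197 animals give with no strain effect. The difference between the highest and the lowest strain mean had a median of 0.53 on the log2 scale, against 0.60 for all genes, and ran from 0.27 in Syt11 to 1.21 in Sytl1, a gene of low level. In a fit to the single libraries with sequencing batch as a term, 70 of the 85 genes passed, beside 70.4% of all genes. In tissue RNA, fewer cells of a type and less RNA per cell cannot be told apart.

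Within single panels fewer genes passed. Among the HXB/BXH strains 14 of the 85 genes had a strain effect, beside 19.1% of all genes, led by Stx3 with an R2 of 0.716. Among the FXLE/LEXF strains Stx17 alone passed, with an adjusted p of 0.0261 and an R2 of 0.765, beside 4.61% of all genes. Among the classic inbred strains 9 genes passed, beside 19.3% of all genes, led by Syt12 with an R2 of 0.721. Sypl2, Sytl2 and Stx8 passed in both the HXB/BXH and the classic inbred strains. The R2 with no strain effect is 0.333 in HXB/BXH, 0.429 in FXLE/LEXF and 0.369 in classic inbred strains. The median R2 of all genes was 0.409, 0.516 and 0.449 in the same order, so R2 values are not compared across panels. The panels differ in the number of strains and animals, and the difference between panels was not tested.

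**Figure D1:**
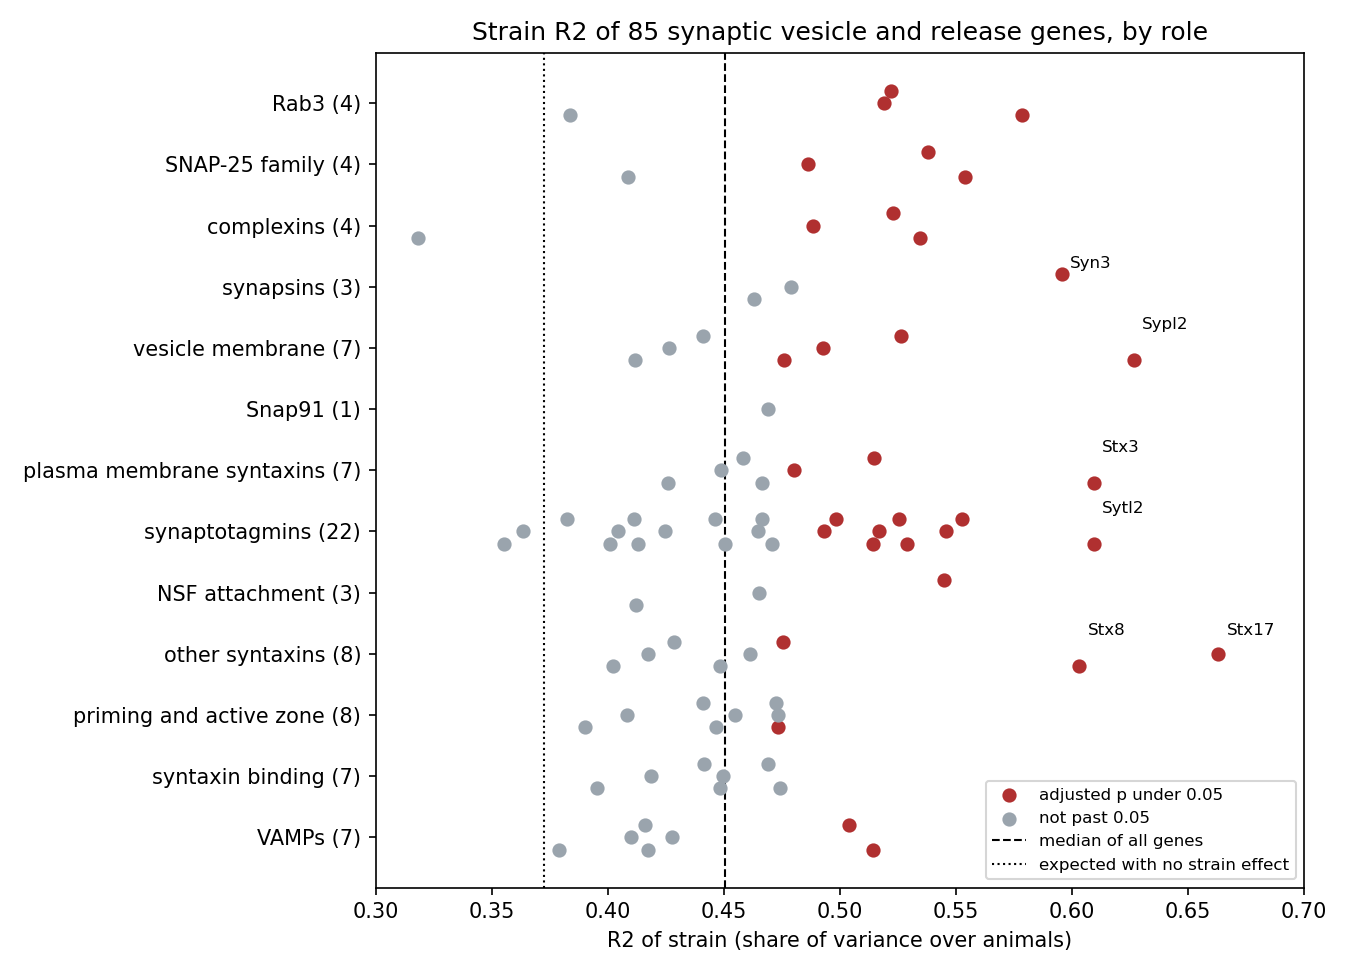
Strain R2 of each of the 85 genes (x axis, share of the variance over animals) by role (y axis, with the number of genes), with red points for genes past an adjusted p of 0.05. The dashed line is the median of all genes (0.451) and the dotted line the value with no strain effect (0.372). Stx17 lies farthest to the right at 0.663, and none of the 7 syntaxin-binding genes is red.

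Of 16 genes of the fusion and vesicle core, 3 had a strain effect, beside 37.3% of all genes: Snap25, Cplx1 and Cplx2. With batch as a term 12 of the 16 passed, beside 70.4% of all genes. The R2 of the 16 ran from 0.384 in Rab3a to 0.534 in Cplx2. The strain means of these 16 genes spanned from 0.30 in Rims1 to 0.78 in Unc13a on the log2 scale. Snap25, the plasma membrane SNARE of neurons, had strain means from 15.07 in SHR/OlaIpcv to 15.61 in BN-Lx/Cub, with a median of 15.38 and an adjusted p of 0.0347. Its partners Stx1a and Vamp2 gave adjusted p-values of 0.0744 and 0.265. Stx1a ran from 11.29 in LE/Stm to 12.04 in SR/JrHsd, a span of 0.76 with a within-strain SD of 0.24. LE/Stm, also the low end of Cplx2, Napg, Syt1 and Syn3 below, had 1 animal, the one with high liver markers.

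Of the 4 complexins, Cplx1, Cplx2 and Cplx3 had a strain effect, as did 3 of the 4 Rab3 genes, beside 37.3% of all genes. The strain means of Cplx2 ran from 15.03 in LE/Stm through a median of 15.23 to 15.43 in SR/JrHsd, with an adjusted p of 0.00556. Those of Cplx1 ran from 13.49 in BN-Lx/Cub to 14.07 in LEXF1C/Stm, with an adjusted p of 0.0301. Of the Rab3 GTPases, which cycle on and off vesicles, Rab3b, Rab3c and Rab3d passed and Rab3a, the most studied form of the brain, did not (adjusted p = 0.497). Rab3b had strain means from 9.70 in BN/NHsdMcwi to 10.26 in LEXF5/Stm, with a median of 10.00, an R2 of 0.579 and an adjusted p of 0.000152.

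The highest R2 values among genes above the table median belonged to syntaxins and a synaptotagmin-like gene. Stx17, the syntaxin of autophagosomes, had an R2 of 0.663 and an adjusted p of 6.21e-08. Its strain means ran from 8.91 in HXB2/Ipcv through a median of 9.22 to 9.46 in HXB7/Ipcv. The animals lay at 8.90 and 8.93 in HXB2/Ipcv and at 9.43, 9.44 and 9.52 in HXB7/Ipcv, strains that were picked as the ends of the range. Stx3, a syntaxin of ribbon synapses and epithelia, had an R2 of 0.609 and an adjusted p of 1.76e-05, with strain means from 8.84 in BUF/MnaMcwi to 9.37 in HXB10/Ipcv and a median of 9.06. The 2 animals of HXB10/Ipcv lay at 9.37 and 9.38. The strain effects of Stx17 and of Stx3 passed in every alternative fit tried for them.

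Of the SNAP25 family, Snap23, Snap25 and Snap29 passed and Snap47 did not. Snap29, which pairs with Stx17 and other internal syntaxins, had strain means from 10.19 in HXB17/Ipcv to 10.64 in BUF/MnaMcwi, which has a single animal, with an adjusted p of 0.00189. Snap23, the widely expressed relative of Snap25, ran from 8.74 in HXB1/Ipcv to 9.51 in BN-Lx/Cub, with an adjusted p of 0.00199. Napg, an attachment protein of Nsf, had a strain effect (adjusted p = 0.00196, 12.12 in LE/Stm to 12.68 in BUF/MnaMcwi), while Napa and Napb gave adjusted p-values of 0.0749 and 0.271. Both end strains of Napg had 1 animal. With batch as a term all 3 attachment genes passed, beside 70.4% of all genes, as they did with the shared component as a covariate, beside 49.0%.

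Of the 22 synaptotagmins and synaptotagmin-like genes 9 passed, beside 37.3% of all genes. Syt1, the fast calcium sensor of the forebrain, was not among them, with strain means from 14.81 in LE/Stm to 15.22 in GK/FarMcwi and an adjusted p of 0.359. The count depended on the fit: with batch as a term 15 of the 22 passed, beside 70.4% of all genes. Syt12 ran from 10.69 in MWF/Hsd to 11.15 in BDIX/NemOdaMcwi and Syt17 from 10.62 in HXB10/Ipcv to 11.03 in LEXF5/Stm, with adjusted p-values of 0.00212 and 0.00145. Syt12 and Syt17 are relatives that lack the calcium-binding residues of Syt1. Sytl2, a partner of Rab27 in granule secretion, had an R2 of 0.609 and an adjusted p of 1.30e-05, with strain means from 11.01 in HXB1/Ipcv to 11.61 in BN-Lx/Cub.

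Among 8 Unc13 and Rims genes only Unc13d, a gene of low level known from immune cells, passed, with an adjusted p of 0.0458, and Unc13a, the main priming factor of the brain, gave 0.126. None of 7 syntaxin-binding genes passed, with Stxbp3 nearest the threshold at an adjusted p of 0.0513. The share of all genes in this fit was 37.3%. Both counts depended on the fit: with batch as a term, where 70.4% of all genes passed, they were 7 of 8 and 6 of 7, with Unc13a at 0.000130 and Rims1 alone of the Unc13 and Rims genes not past the threshold (0.103). With the shared component as a covariate Unc13d did not pass (adjusted p = 0.127). Of 7 vesicle membrane genes Sv2b, Sv2c, Sypl1 and Sypl2 passed, while Sv2a, Syp and Synpr gave adjusted p-values of 0.148, 0.313 and 0.193. Of the synapsins Syn3 passed, with an adjusted p of 0.000219, and Syn1 gave 0.0671. The strain means of Syn3 ran from 10.56 in LE/Stm to 10.96 in LEXF2B/Stm, each with 1 animal. The lowest R2 among genes above the table median were those of Syt9 (0.363), Vamp4 (0.379), Rab3a (0.384), Rims2 (0.390) and Stxbp6 (0.395).

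The progenitors of the HXB/BXH family differed in Snap25, Sytl2 and Rab3c, all 3 higher in BN-Lx/Cub. The contrast of 3 BN-Lx/Cub animals with 2 SHR/OlaIpcv animals passed for 3 of the 85 genes, beside 4.51% of all genes, and 2.63% of all genes were called higher in BN-Lx/Cub. None of the 85 genes was called lower there, beside 1.87% of all genes. The SHR/OlaIpcv animals were sequenced repeatedly, with 12 libraries of one animal and 6 of the other over many batches, and the libraries of an animal were averaged. The BN-Lx/Cub animals had 4 libraries.

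Snap25 lay at 15.51 to 15.76 in the 4 BN-Lx/Cub libraries and at 14.84 to 15.45, with a median of 15.07, in the 18 SHR/OlaIpcv libraries. The ranges did not overlap. Such ranges are given for called genes only, without the share of all genes whose ranges are separate. The difference over animals was 0.54 (SE 0.12, adjusted p = 0.00160). In the 3 batches that held both strains, each BN-Lx/Cub library lay 0.33 to 0.58 above the SHR/OlaIpcv library. All SHR/OlaIpcv libraries of these batches came from animal 1, and 2 of the 4 BN-Lx/Cub libraries from animal 3, here and in the within-batch values of the other genes. A difference of one sign in all these pairs was common, with 21.4% of all genes higher and 19.1% lower in BN-Lx/Cub. Among the HXB/BXH strains 16 lay above the midpoint of the progenitors and 14 below, between 15.17 in HXB2/Ipcv and 15.53 in BXH9/Cub, so that no strain lay outside the progenitors. Snap25 formed a single cluster of strain means in that panel and did not pass the F-test within it (adjusted p = 0.487). The deposited rn6 annotation places Snap25 at chr3:129598918-129859309.

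Sytl2 lay at 11.45 to 11.83 in BN-Lx/Cub and at 10.88 to 11.39, with a median of 11.14, in SHR/OlaIpcv, again without overlap. The difference was 0.46 (SE 0.11, adjusted p = 0.0040), and within batches it was 0.38 to 0.78. Sytl2 was below the midpoint in 19 HXB/BXH strains and above it in 11, and 2 of these strains lay outside the progenitors. Rab3c lay at 10.53 to 10.88 in BN-Lx/Cub and at 10.15 to 10.52 in SHR/OlaIpcv, with a difference of 0.41 (SE 0.10, adjusted p = 0.0035) and within-batch differences of 0.18 to 0.39. For Rab3c the gap between the strains was narrow, 24 of 30 HXB/BXH strains lay above the midpoint, and 2 lay outside the progenitors. With batch as a term Snap25, Sytl2 and Rab3c all passed, among 16 genes of the 85 (7 higher and 9 lower in BN-Lx/Cub), beside 16.8% of all genes. That fit took single libraries, among them 18 libraries of the 2 SHR/OlaIpcv animals. The correlation within animals was estimated from only 3 animals with more than 1 library. Its p-values therefore rest in part on repeat libraries of the same animals.

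The call of these 3 genes depended on the table and on the fit. In the v6 table, which held 3 animals of SHR/OlaIpcv, none of the 3 genes passed. The differences there were 0.35 in Snap25, 0.29 in Sytl2 and 0.25 in Rab3c (adjusted p = 0.102, 0.219 and 0.131). With the replicate number as a block Sytl2 and Rab3c lost their call (0.41 and 0.35, adjusted p = 0.0514 and 0.0752), and Snap25 kept it (0.45, adjusted p = 0.0371). In the v5 table Rab3c differed by -0.08 (adjusted p = 0.733) and the differences of Snap25 and Sytl2, 0.21 and 0.32, did not pass. In the table of the main fit SHR/OlaIpcv had only the animals numbered 1 and 4. Without either number, 1 animal stood for the strain there and was assumed to vary like the others. The difference of Snap25 was then 0.50 in both cases, with adjusted p-values of 0.172 and 0.0964. With only the SHR/OlaIpcv libraries of the same batches, all of animal 1, the differences were 0.50 in Snap25, 0.49 in Sytl2 and 0.30 in Rab3c, and Sytl2 alone passed (adjusted p = 0.0453), beside 1.35% of all genes. All 3 blood markers were lower in BN-Lx/Cub, with adjusted p-values from 0.000535 in Alas2 to 0.0208 in Hbb, and the mean of their log2 levels differed by -1.28. Their part in these results was not tested. For the liver and olfactory bulb lists this difference was -0.58 and -0.49, and no gene of either list passed.

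**Figure D2:**
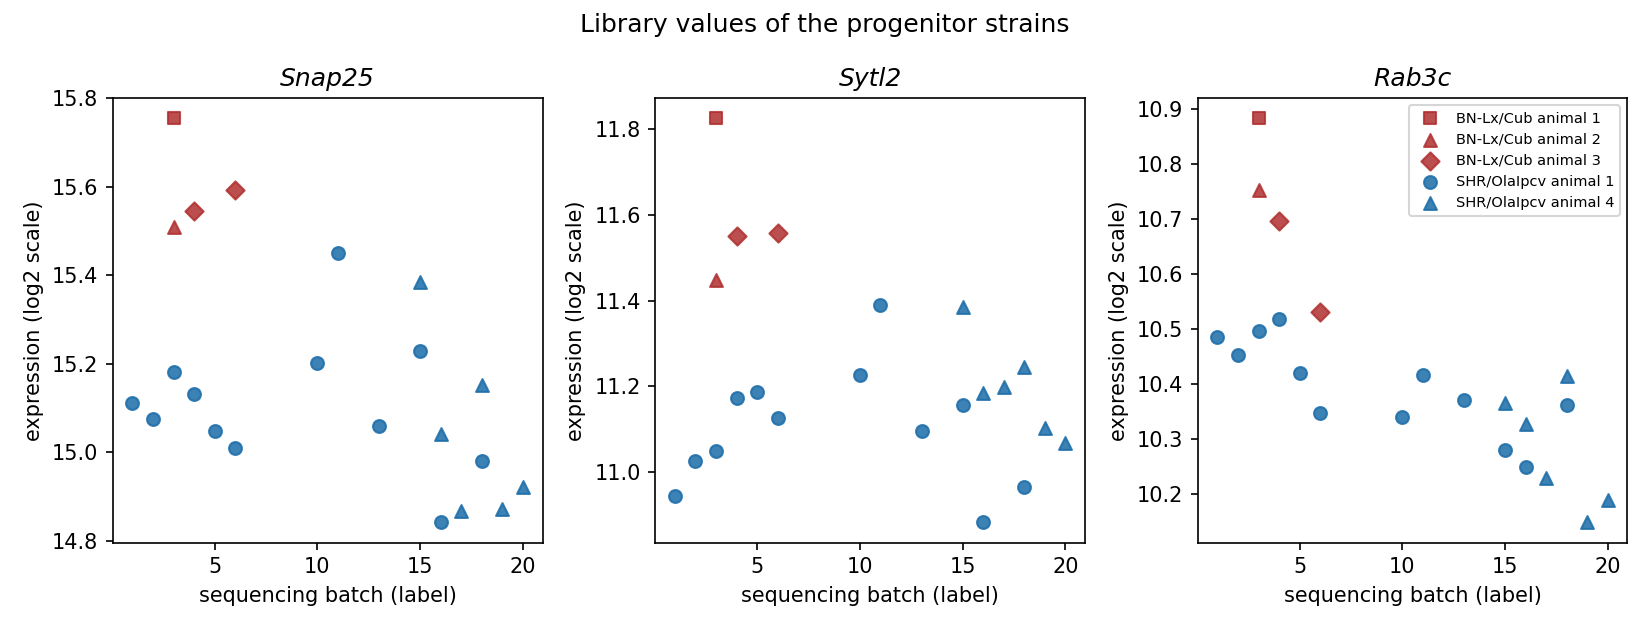
Expression of Snap25, Sytl2 and Rab3c (y axis, log2 scale) in each library of BN-Lx/Cub (red) and SHR/OlaIpcv (blue) by the sequencing batch label (x axis), with a marker shape for each animal. The 4 BN-Lx/Cub libraries lie above all 18 SHR/OlaIpcv libraries in each panel, with the narrowest gap in Rab3c (10.53 against 10.52).

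Stx8 was low in a single strain. Stx8 is a syntaxin of late endosomes. In HXB17/Ipcv its 3 animals lay at 8.72, 9.09 and 9.12, while the 194 animals of the 73 other strains lay between 9.24 and 9.96. No animal of another strain reached the HXB17/Ipcv values. The mean of HXB17/Ipcv was 8.98 against 9.63 for the other strains, a difference of -0.65 (SE 0.07, limma contrast of the strain with all others, adjusted p = 1.26e-12 over all genes and strains). The difference held in each alternative fit, from -0.52 without the animals numbered 3 to -1.47 in the v5 table. Neither progenitor was as low, with 9.73 in BN-Lx/Cub and 9.48 in SHR/OlaIpcv, against a median of 9.64 over strains. SHR/OlaIpcv lay below the other 29 HXB/BXH strains, which had means from 9.53 to 9.76. The contrast of BN-Lx/Cub with SHR/OlaIpcv in Stx8 was 0.25 (adjusted p = 0.172), and in the v6 table it was 0.37 and passed (adjusted p = 0.0338). The Stx8 transcript NM_031656 of the transcript table also had its lowest strain mean in HXB17/Ipcv, 7.78 against a median of 9.07 over strains. The rn6 annotation places Stx8 at chr10:54512205-54858825.

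**Figure D3:**
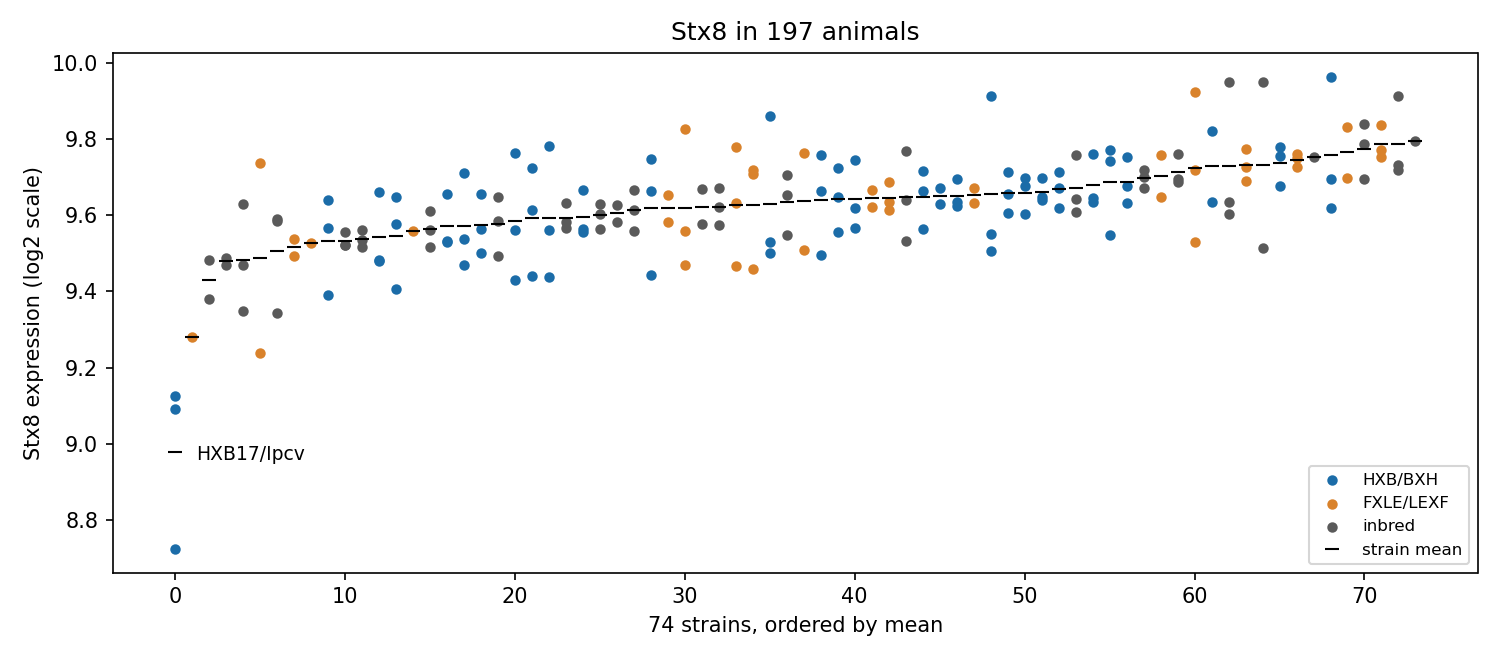
Stx8 expression (y axis, log2 scale) in 197 animals of 74 strains ordered by strain mean (x axis), coloured by panel, with the strain mean as a bar. The 3 animals of HXB17/Ipcv (8.72 to 9.12) lie below every other animal.

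Across all strains, 24 of 6290 contrasts of a single strain with the others passed, in 19 of the 85 genes and 16 strains. All genes together gave a larger share, 1.20% of gene and strain pairs, and 25.2% of genes had at least 1 such call. Of the 24 calls, 9 were above and 15 below the other strains, and in 2 (Stx8 in HXB17/Ipcv and the low-level Unc13d in FXLE13/Stm, with 1 animal) the animals lay outside those of all other strains. The shares of all single-strain calls with each direction, or with separate animals, are not given here. BN-Lx/Cub had 4 calls: Sypl1 at 11.02 against 10.52, Snap23 at 9.51 against 9.11, Sytl2 at 11.61 against 11.33, and Cplx1 at 13.49 against 13.78. With the first principal component of the rest of the table as a covariate these differences were 0.22, 0.14, 0.10 and -0.08 and none passed. HXB1/Ipcv had 3, all below the other strains: Snap23 by 0.38, Sytl2 by 0.33 and Stxbp5l, a tomosyn that limits SNARE assembly, by 0.30. Syt5 was low in LH/MavRrrc (11.31 against 11.67) and Stxbp3, a syntaxin partner of general secretion, was low in BXH13/Cub (10.22 against 10.54). Rab3c was low in SHR/OlaIpcv (10.34 against 10.66), a difference that turned to 0.10 in the v5 table, and Sypl2 was high in SR/JrHsd (5.13 against 4.56). For each of these 11 calls the animals of the strain overlapped those of other strains. With batch as a term 332 of the 6290 gene and strain pairs passed, beside 5.28% of all pairs, and 21 of the 24 calls were among them. A strain with 1 animal was assumed to vary like the others.

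Strain means of 8 of the 85 genes fell into more than 1 cluster among the 30 HXB/BXH strains, beside 11.7% of all genes. Rab3b formed 2 groups of 13 and 17 strains, at 9.77 to 9.95 and at 9.99 to 10.19. BN-Lx/Cub (9.75) lay with the low group and SHR/OlaIpcv (10.04) with the high group. The direct contrast of the progenitors in Rab3b was -0.30 with an adjusted p of 0.142. With batch as a term it was -0.35 (adjusted p = 0.00627), and with the shared component as a covariate -0.16 (adjusted p = 0.446). Stx3 formed a low group of 24 strains (8.90 to 9.13) and a high group of 6 (9.17 to 9.37), with BN-Lx/Cub at 9.26 and SHR/OlaIpcv at 9.04. Sytl2 had 5 low strains (11.01 to 11.21) and 25 others (11.28 to 11.48). Stx8 was split only by HXB17/Ipcv. The remaining genes of the 8 were Syt2, Syt5, Syt8 and Sytl4. With a gain in the Bayesian information criterion (BIC) of more than 6, 4 genes (Rab3b, Stx8, Syt5 and Syt8) remained in more than 1 cluster, beside 3.36% of all genes. The groups of Stx3 and Sytl2 were not kept, with BIC gains of 0.876 and 3.16.

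A transcript of Vamp1 and one of Rims1 differed between the progenitors, while the genes that hold them did not pass there. Most transcripts had no strain effect. The width of the strain range does not set the Rims1 transcript apart, since other Rims1 transcripts without a strain effect had a wider one. The transcript table matched 205 transcripts to 81 of the 85 genes, and 23 of these had a strain effect, beside 13.9% of all 45918 transcripts. Their median R2 was 0.427, against 0.412 for all transcripts. Between BN-Lx/Cub and SHR/OlaIpcv 2 passed, beside 0.791% of all transcripts: NM_013090 of Vamp1, a vesicle SNARE prominent in hindbrain and spinal cord, and XM_039084288 of Rims1. They are described because they passed, and so were chosen after their values were seen. Library ranges are given for these only, without the share of all transcripts whose ranges are separate. Libraries of an animal are repeats and add no animals. The split of reads among transcripts of a gene is estimated and is less certain than the sum over the gene.

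The Vamp1 transcript had an R2 of 0.871, rank 83 of the 45918 transcripts. It lay at 12.25 to 12.84 in the 4 BN-Lx/Cub libraries and at 4.31 to 10.80, with a median of 7.08, in the 18 SHR/OlaIpcv libraries. The ranges did not overlap, and the values of SHR/OlaIpcv were widely spread, with both ends of the range from animal 1. The difference over animals was 5.55 (SE 0.76, adjusted p = 3.74e-08). It was 4.95 with batch as a term and 4.96 to 6.09 when animals of a number were left out. Among the HXB/BXH strains 18 lay at 6.44 to 9.88 and 12 at 12.25 to 14.07, and no strain mean lay between. All 19 FXLE/LEXF strains lay between, at 10.54 to 11.79. No sequencing batch held animals of both families, so family and batch cannot be told apart, here and for the Rims1 transcript below. Of the classic inbred strains 5 had means up to 7.98, and 20 had means from 10.40 to 12.60. The 5 were BUF/MnaMcwi, with 1 animal, WKY/NCrl, SHR/OlaIpcv, SHRSP/A3NCrl and LEW/SsNHsd. LEW/Crl (animals at 9.79 to 10.91) lay at the lower end of the 20 and LEW/SsNHsd (5.79 to 9.31) with the 5. The study reports its highest kinship for these LEW substrains, and no sequencing batch held animals of both. The 3 animals of LEW/Crl were among the libraries left out as doubtful in an alternative fit. At the level of the gene Vamp1 differed by -0.05 (adjusted p = 0.877) between the progenitors. Over 197 animals the transcript and the gene had a correlation of 0.119, given as a description over animals that share strains. Other transcripts of Vamp1 were not matched by name and were not analysed here.

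The Rims1 transcript was one of 22 matched for this gene. It lay at 7.79 to 9.26 in the BN-Lx/Cub libraries and at 5.89 to 7.68 in those of SHR/OlaIpcv, without overlap. The difference was 1.86 (SE 0.31, adjusted p = 1.66e-05), and without the animals numbered 1 it was 1.78 with an adjusted p of 0.0536. BN-Lx/Cub was the highest of the 74 strains (8.61) and SHR/OlaIpcv the lowest (6.75). BN/NHsdMcwi, another BN strain, lay at 7.48, below the midpoint of the progenitors (7.68). A further Rims1 transcript with a strain effect, XM_039084268 (R2 0.601), differed by 0.37 between the progenitors and did not pass there (adjusted p = 0.909). Of the HXB/BXH strains 17 lay at 6.82 to 7.59 and 13 at 7.91 to 8.49. The FXLE/LEXF strains and the classic inbred strains filled the range between, from 7.28 to 8.42 in the former. At the level of the gene the progenitors differed by -0.02 (adjusted p = 0.925).

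**Figure D4:**
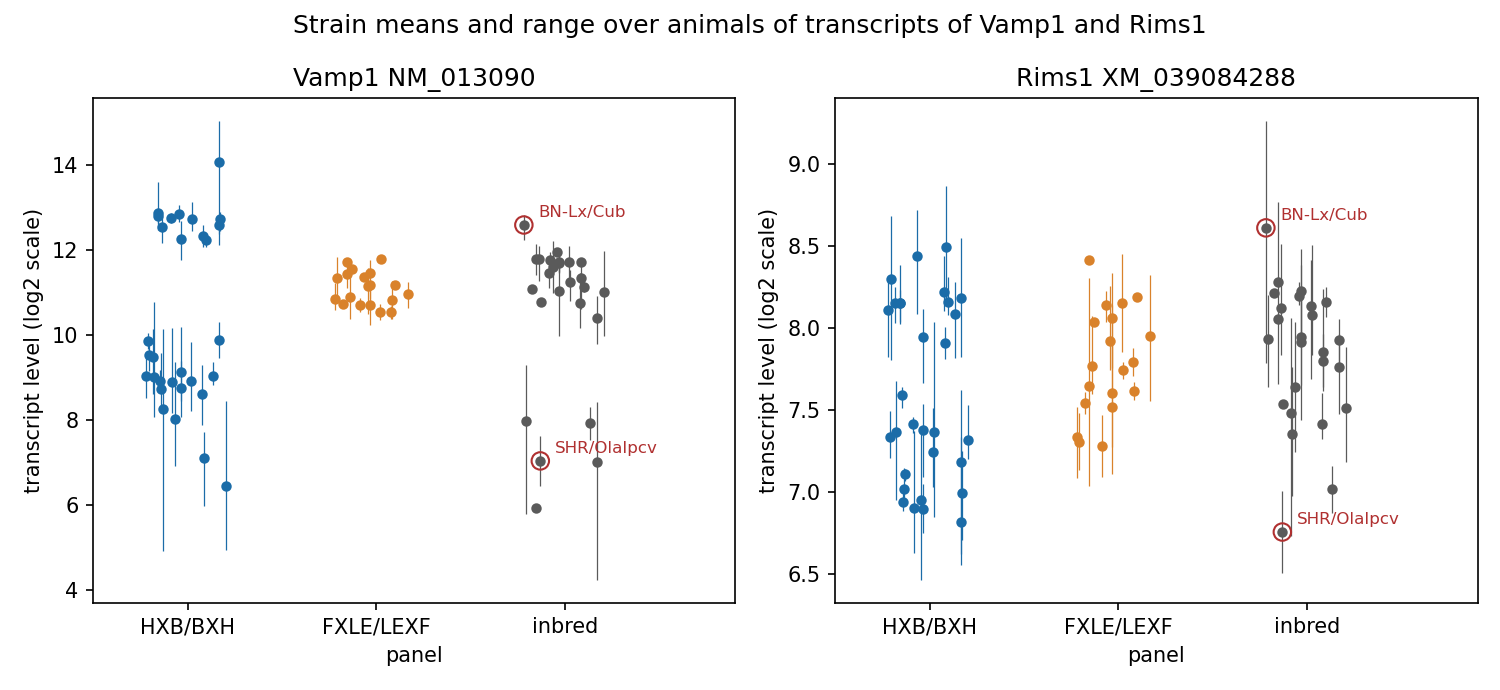
Strain means (points) and the range over animals (lines) of NM_013090 of Vamp1 and XM_039084288 of Rims1 (y axes, log2 scale) in the 3 panels (x axis), with the HXB/BXH progenitors circled. For Vamp1 the HXB/BXH strains form a low set up to 9.88 and a high set from 12.25, and the FXLE/LEXF strains lie between. No sequencing batch held animals of both families.

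The 85 genes shared a pattern that ran through the whole table. Their first principal component held 27.7% of the variance of scaled strain means, against 20.2% for all genes. Over animals its scores had a correlation of 0.987 with the first component of the genes outside the list, from which the 85 were left out (n = 197 animals that share strains and batches). The order of animals along this component was therefore nearly that of the table. The strain R2 of the scores of the 85 genes was 0.423. Of the first component of the genes outside the list, computed over libraries, a share of 0.00871 of the variance lay between sequencing batches. With 17 batches a larger share would arise on average with no batch effect at all. Whether batch differences had been removed from these values beforehand is not known. Within strains the first component held 33.8% of the variance of the 85 genes, and its loadings had a correlation of 0.996 with those over animals.

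The genes of the release machinery went both ways along this component, as did the table: 50.6% of them and 50.2% of all genes had a positive correlation with it. Of the 85 genes, 22 rose and 22 fell with a correlation beyond 0.5, which is 51.8% of them against 36.3% of all genes. Rising genes were Syt3 (0.84), Syt13 (0.83), Unc13a (0.82), Sv2a (0.82), Rims4 (0.79), Cplx1 (0.78), Stx1a (0.74), Napa (0.72), Rab3a (0.70) and Syp (0.66). Falling genes were Vamp4 (-0.88), Stx7 (-0.86), Napb (-0.85), Stx12 (-0.83), Stxbp6 (-0.80), Syt4 (-0.77), Snap23 (-0.76) and Snap25 (-0.58). Partners within a step went apart, as Napa and Napb did, and Snap25 fell with the component while Stx1a rose. Vamp2, at 0.46, did not pass 0.5. The mean log2 level of the 8 neuron markers had a correlation of 0.643 with the component, and that of the 5 endothelial markers one of 0.567. The genes of these lists went both ways, from -0.69 in Map2 to 0.83 in Tubb3 among neuron markers and from -0.38 in Tek to 0.74 in Cldn5 among endothelial markers. The astrocyte list (0.03) held Aqp4 at -0.61 and Aldh1l1 at 0.67. The part of these cell types in the component was not tested. Animal 1 of BN-Lx/Cub lay at its low end and animal 1 of SR/JrHsd at its high end.

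**Figure D5:**
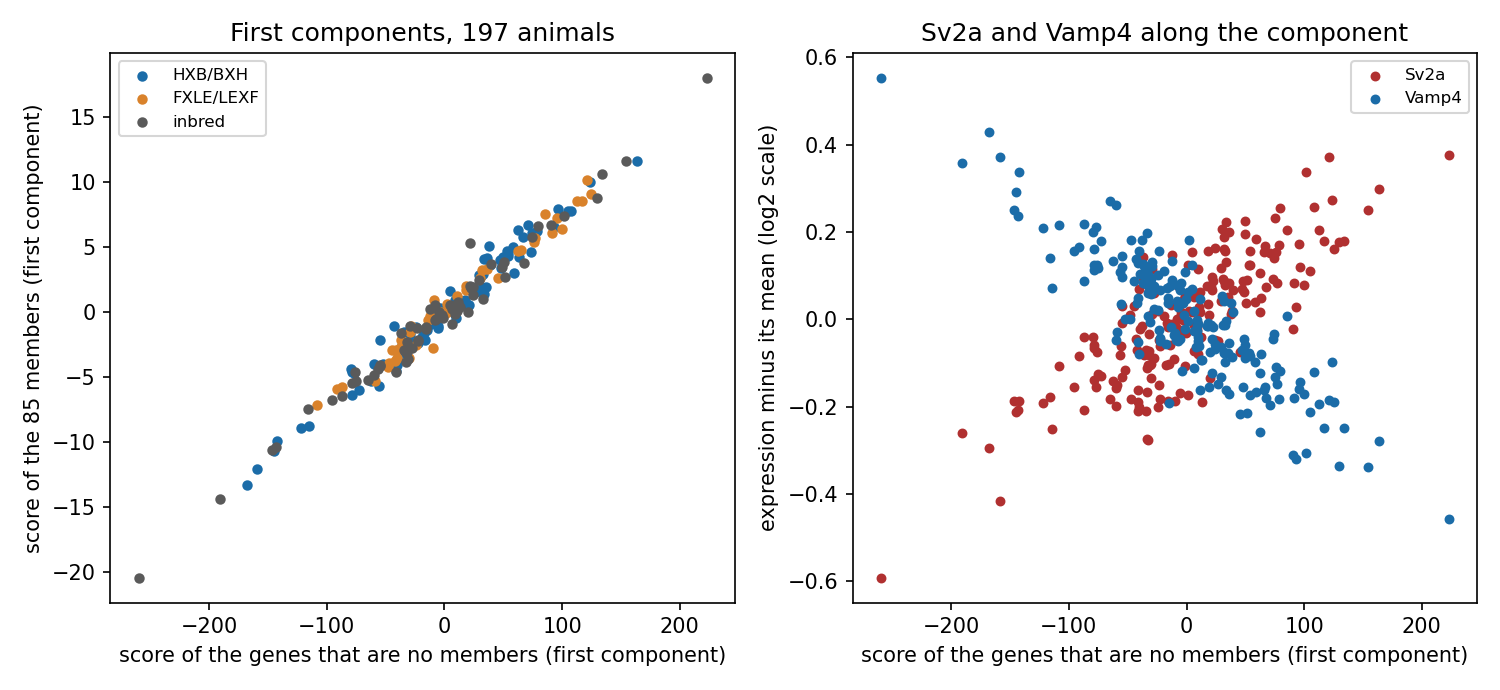
Left, the first component of the 85 genes (y axis, score) against that of the genes outside the list (x axis, score) in 197 animals, coloured by panel (correlation 0.987). Right, Sv2a and Vamp4 minus their means (y axis, log2 scale) against the same score, which rise and fall along it (0.82 and -0.88).

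With this component as a covariate, an analysis added after the data had been seen, 53 of the 85 genes had a strain effect, beside 49.0% of all genes, and 9 of the 16 core genes passed in place of 3. Snap25, Sytl2 and Rab3c remained higher in BN-Lx/Cub, by 0.40, 0.30 and 0.39, and Stx17 (-0.25) and Rims3 (0.32) passed as well, which makes 5 of the 85 genes beside 4.68% of all genes. Neither of the added genes was called without the component: Stx17 differed by -0.14 (adjusted p = 0.458) and Rims3 by 0.13 (adjusted p = 0.632). With batch as a term they differed by -0.11 and -0.02, with adjusted p-values of 0.335 and 0.934. Within batches the differences went both ways, from -0.30 to 0.20 in Stx17 and from -0.40 to 0.21 in Rims3. Single-strain calls numbered 71 of 6290 pairs, beside a larger share of 1.94% of all gene and strain pairs. Of the 24 single-strain calls 17 passed and 7 did not. Those that did not were Sypl1, Snap23, Sytl2 and Cplx1 in BN-Lx/Cub, Snap23 and Stxbp5l in HXB1/Ipcv, and Cplx2 in SR/JrHsd. Snap23 and Stxbp5l in HXB1/Ipcv then differed by -0.16 and -0.13, while Cplx2 in SR/JrHsd differed by 0.18 against 0.21 without the component (adjusted p = 0.0526).

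A few strains supplied many of the highest and lowest means. LEXF5/Stm, with 2 animals, had the highest strain mean for 12 of the 85 genes (14.1%, against 5.34% of all genes), among them Syp, Sv2a, Rab3a, Unc13a, Syn1 and Syt3. The strain ranked 4 of 74 from the high end of the shared component, and these 6 genes had correlations of 0.43 to 0.84 with it. Animal 2 of that strain had the lowest mean log2 level of all animals for the astrocyte (13.05) and the microglia markers (9.01), whose part in this was not tested. LE/Stm, whose single animal carried the high liver markers, had the lowest for 11 (12.9% against 6.55%), among them Syt1, Stx1a, Cplx2, Syn3, Napg and Vamp4. BN-Lx/Cub was highest for 10 genes (11.8% against 6.71% of all genes) and lowest for 7 (8.24% against 5.14%). The mean scaled level over the 85 genes was lowest in LE/Stm (-0.65 SD), SHRSP/A3NCrl (-0.46) and SHR/OlaIpcv (-0.37) and highest in LEXF5/Stm (0.33). No test was made of these means.

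Libraries of one animal gave a measure of the technical spread. Over the 12 libraries of one SHR/OlaIpcv animal, each from another batch, the SD of a gene had a median of 0.147 on the log2 scale, against a within-strain SD over animals of 0.142. The library SD was the larger in 57 of the 85 genes, and in 55.9% of all genes.

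Other genes of the release pathway were tested in the same fits. Of 44 such genes 17 had a strain effect (38.6%, beside 37.3% of all genes), with the highest R2 in Sncg, a synuclein (0.682), Otof, the calcium sensor of inner hair cells (0.624), and Pclo, an active zone scaffold (0.571). Between the progenitors Pclo and Rab27b were higher in BN-Lx/Cub, by 0.39 and 0.67, with adjusted p-values of 0.0142 and 0.0113, and no gene of the 44 was called lower. These are 2 of the 44 genes, beside 4.51% of all genes. With the shared component 23 of the 44 genes rose and 7 fell beyond 0.5, beside 36.3% of all genes in either direction.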

How the data were processed

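Total RNA of brain was depleted of ribosomal RNA and sequenced with a stranded protocol. Per the submitters' processing notes, the tools used for at least part of the samples were cutadapt 1.9.1, Bowtie2 (2.3.4.3 or 2.4.5), HISAT2 (2.1.0 or 2.2.1), StringTie (1.3.5 or 2.2.1), RSEM (1.3.1 or 1.3.3) and DESeq2, with the build rn6. The deposited gene and transcript values are on a log2 scale, and for an expression matrix of part of these samples the study's methods describe RSEM estimates, the removal of 1 factor of unwanted variation and a regularized log transformation by the authors. Those reads were aligned to rn6. The steps and the genome behind the v7.1 tables used here, and behind the v6 table, are not given in the sources used here, and the methods do not name the v5 tables. The v5 annotation is read as rn6, since its gene table names Ensembl 96, the guide of the rn6 reconstruction in the methods. RSEM divides reads between near-identical transcripts and paralogs by estimate. No counts were used, so depth is unknown.

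The 85 genes, the lists and the tests were chosen with earlier results of these data known. Spike-in rows (73) were dropped, giving 20859 genes in 214 libraries. Libraries that share strain and replicate number were averaged, which gave 197 animals, on the reading that they are repeats of one animal. For strains outside the study's methods nothing says that replicates are separate animals, and p-values measure the spread between these samples. Strain, replicate and batch (the batch characteristic) came from the labels. A 1-way fit over strains in limma 3.58.1 (R 4.3.3) gave the F-test (123 residual degrees of freedom), the contrast of BN-Lx/Cub with SHR/OlaIpcv and that of each strain with the mean of the others, with Benjamini-Hochberg adjustment over all genes (and all strains for the last) at 5%. Batch was fitted to libraries with an estimated correlation of 0.201 within animals. Clusters (1 to 3, equal variance) came from mclust 6.1.1. The shared component is the first principal component over animals of scaled genes outside the list. Members of the v6 and v5 Ensembl tables (77 in each) were found through symbols in deposited annotations, and positions on rn6, found for 61 genes, span the reconstructed transcripts of the v5 annotation. The fits were tested on simulated data.

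Genes named by rule were the 12 with the highest and the 5 with the lowest R2 above the table median, genes called between the progenitors, up to 10 single-strain calls by size and 16 core release genes. The values of some core genes are not reported here. Others are named in counts or for a value shown, after their values were seen. Alternatives were a replicate block, each replicate number left out, batch, centred libraries, genes above the table median, the doubtful libraries left out, the symbols alike in spelling, the v6 and v5 tables and, chosen after seeing the data, the shared component and same-batch SHR/OlaIpcv libraries.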

Additional observations from a re-analysis of the deposited data

How the results depend on the processing

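Of 51 named results 31 were called and 4 of these (the strain effects of Stx17 and Stx3, Stx8 in HXB17/Ipcv and the Vamp1 transcript between the progenitors) were called in every alternative run for them. The other 27 lost their call in at least 1. Rab3c reversed in the v5 table, with -0.0847 between BN-Lx/Cub and SHR/OlaIpcv and 0.0958 for SHR/OlaIpcv against the other strains. The cause was not tested.

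With animals of 1 replicate number left out, which removes samples and residual degrees of freedom, genes with a strain effect numbered 6 to 30 (14.4% to 35.2% of all genes), with 3 to 12 among HXB/BXH (8.04% to 19.1%), 0 to 3 among FXLE/LEXF (0.288% to 6.52%) and 1 to 6 among classic inbred strains (5.75% to 17.2%). The median R2 was 0.463 to 0.627, and 0.451 to 0.628 for all genes. The R2 with no strain effect is also higher with fewer animals for each strain. Progenitor calls were 0 to 5 (0.949% to 6.19% of all genes), single-strain calls 5 to 22 (0.391% to 1.14% of all pairs), the share of the first component 24.9% to 32.7% (18.7% to 23.0% for all genes) and called transcripts 6 to 22 (4.83% to 13.0% of all transcripts). Without number 1, which leaves 1 SHR/OlaIpcv animal, no gene was called between the progenitors.

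With batch as a term the counts were 70 genes (70.4% of all genes), 25 among HXB/BXH (32.1%) and 42 among classic inbred strains (46.6%). Progenitor calls were 16 (16.8%), single-strain calls 332 (5.28% of all pairs) and called transcripts 75 (32.2% of all transcripts). The R2 of this setting was computed on animal means, as the share of the variance left by batch that lies between strains. Its median was 0.522 (0.507 for all genes), which is not comparable with the R2 of the main fit. The first component was taken from strain means after batch differences were subtracted from the libraries, and held 39.3% (30.0% for all genes). For FXLE/LEXF batch and strain could not be separated, and that panel was not fitted in v5. The v5 table, with 77 of the genes, gave 58, 23 and 30 genes with a strain effect over all, HXB/BXH and classic inbred strains (63.6%, 23.5% and 34.4% of its genes), a median R2 of 0.521 (0.490 for all its genes), 0 progenitor calls (4.37%) and 184 single-strain calls (5.74% of all pairs). The v6 table, also with 77, gave 9 genes among FXLE/LEXF strains (15.5% of its genes), 1 progenitor call (Stx8, 2.19%) and 12 single-strain calls (1.28% of all pairs). With the shared component there were 53 genes (49.0%), 5 progenitor calls (4.68%) and 71 single-strain calls (1.94% of all pairs). With genes above the table median there were 15 single-strain calls (0.623% of their pairs), and with a BIC gain over 6 there were 4 genes in more than 1 cluster (3.36%). With SHR/OlaIpcv libraries of the same batches, which are all of 1 animal, there was 1 progenitor call (Sytl2, 1.35% of all genes).

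Replicate numbers did not pair the animals: deviations from strain means had a median correlation of 0.0148 for the same number and -0.00734 for different numbers. With the replicate block 1 gene, Snap25, was called between the progenitors. Depth is unknown, and the number of animals, 1 to 3 in each strain, limits every strain mean.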
